A study of Mus musculus with 33 samples.

Results

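Bone morphogenetic proteins (BMPs), transforming growth factor beta (TGF-beta) and activin, together with intracellular inhibitors of their signal and a BMP target gene, were followed across the regions and sorted thymocytes of the mouse thymus. The set holds 10 genes, taken by symbol: the BMP ligands Bmp2, Bmp4 and Bmp7, the TGF-beta ligands Tgfb1, Tgfb2 and Tgfb3, the activin subunit Inhba, the inhibitory SMADs Smad6 and Smad7, and the target gene Id1. All probe sets that carry 1 of these symbols were used, which gave 18 of the 45037 probe sets on the array, and the 10 genes stand among 18193 genes with a probe set of 1 symbol. The study mapped gene expression of thymic microenvironments with Affymetrix arrays, 1 RNA sample per array. Its 33 arrays fall into 7 groups, all from male C57bl6/J mice 4 to 6 weeks old. Dissected tissue made up 23 arrays, namely whole medulla (n = 7), perimedullary, subcapsular and central cortex (n = 3 each) and whole cortex (n = 7). Sorted cells made up 10 arrays: medullary thymocytes (n = 5), gated as CD45+ with high CD3, and cortical thymocytes (n = 5), gated as CD45+ cells that carry CD90 or CD117 while CD3 is absent or low. Each mean ± SD is over the arrays of its group, with these n. Arrays are titled as biological replicates, though no label ties a region to an animal. Arrays may therefore share animals. The p-values may then be too small where arrays of 1 group share an animal, or too large where arrays of compared groups do. They measure only the spread between these arrays. How the regions were outlined is not given in the sources used here.

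As background, ligands of this family bind pairs of type I and type II receptor kinases at the cell surface, which phosphorylate receptor SMADs. BMP receptors act through SMAD1, SMAD5 and SMAD9, and TGF-beta and activin receptors through SMAD2 and SMAD3, and both arms join SMAD4 to enter the nucleus. Smad6 and Smad7 are induced by the signal and feed back on it, Smad6 mainly on the BMP arm and Smad7 on both, while Id1, an inhibitor of basic helix-loop-helix transcription factors, is a direct BMP target. TGF-beta is secreted in a latent complex and is set free by integrins such as αvβ8. In the thymus, BMP4 is known from mesenchyme and endothelium as a signal to epithelium, and TGF-beta from work on regulatory and innate-like T cells.

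All values are MAS5 signals, an array brightness scaled within each array. Array medians ran from 71.9 to 163, and arrays of the same group had a Pearson r of 0.916 to 0.984 with each other. The medians were 128.1 to 163.3 in whole medulla and 93.3 to 117.5 in whole cortex. The 25th percentiles were 37.5 to 53.4 and 26.2 to 35.1 in the same order, so dim signals lay higher in whole medulla. Precision is limited by how many arrays a group has. On 13 arrays the highest values ran further up than on the others (a value above 42000 was exceeded by 0.1% of the probe sets): whole medulla 1 to 5, whole cortex 1 to 5 and sorted medullary thymocytes 1 to 3. They are called wide-tail arrays below, and results that depend on them are given within the wide-tail arrays and within the 20 other arrays. The 20 others were not alike. The value exceeded by 0.1% of the probe sets was 16919 to 19984 on the cortical subregion arrays, and 39952 and 35990 on whole cortex 6 and 7. Marker genes of the labelled parts were in place. The summed signal of 6 medullary epithelial markers was 14171 to 16010 in whole medulla and 741 to 1344 in whole cortex. That of 4 double-positive thymocyte markers was 1141 to 2365 in whole medulla and 61606 to 118301 in whole cortex. In sorted cells, 4 mature thymocyte markers summed to 25320 to 32294 in medullary and 726 to 835 in cortical thymocytes.

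In whole medulla, 5 members were higher than in whole cortex: Bmp2, Tgfb2, Tgfb3, Smad7 and Id1. A gene was called higher or lower where its adjusted p in limma was below 0.05 and its log2 fold change, on the scale of log2(signal + 26.2), was at least 1 in size. This offset makes the change of dim genes smaller than the ratio of their signals. In this comparison 18.6% of the 13445 genes tested were called higher and 5.39% lower, against 5 and 0 of the 8 members whose lead probe set passed the filter on dim signals. The lead probe set of a gene is the one with the highest mean over all arrays. A probe set passed when it was above the median of its array on at least 3 arrays, so a member that is bright in 1 group only could pass through that group. Bmp2 passed through whole medulla alone, the group where it was then called higher. Tgfb2 was above the median on 9 arrays, 7 of them whole medulla, and Tgfb3 on 7, 6 of them whole medulla. Without that group neither would have passed. Without the filter, 6 of the 10 members were called higher in whole medulla and 0 lower, where 15.3% of genes were called higher and 4.01% lower. The lead probe sets of Bmp4 and Smad6 did not pass. Between sorted medullary and sorted cortical thymocytes, 1 lead probe set of a member was called higher, that of Smad7, and 0 lower, where 7.68% of genes were called higher and 6.3% lower. In bulk RNA, more cells of a type and more RNA per cell cannot be told apart.

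**Figure D1:**
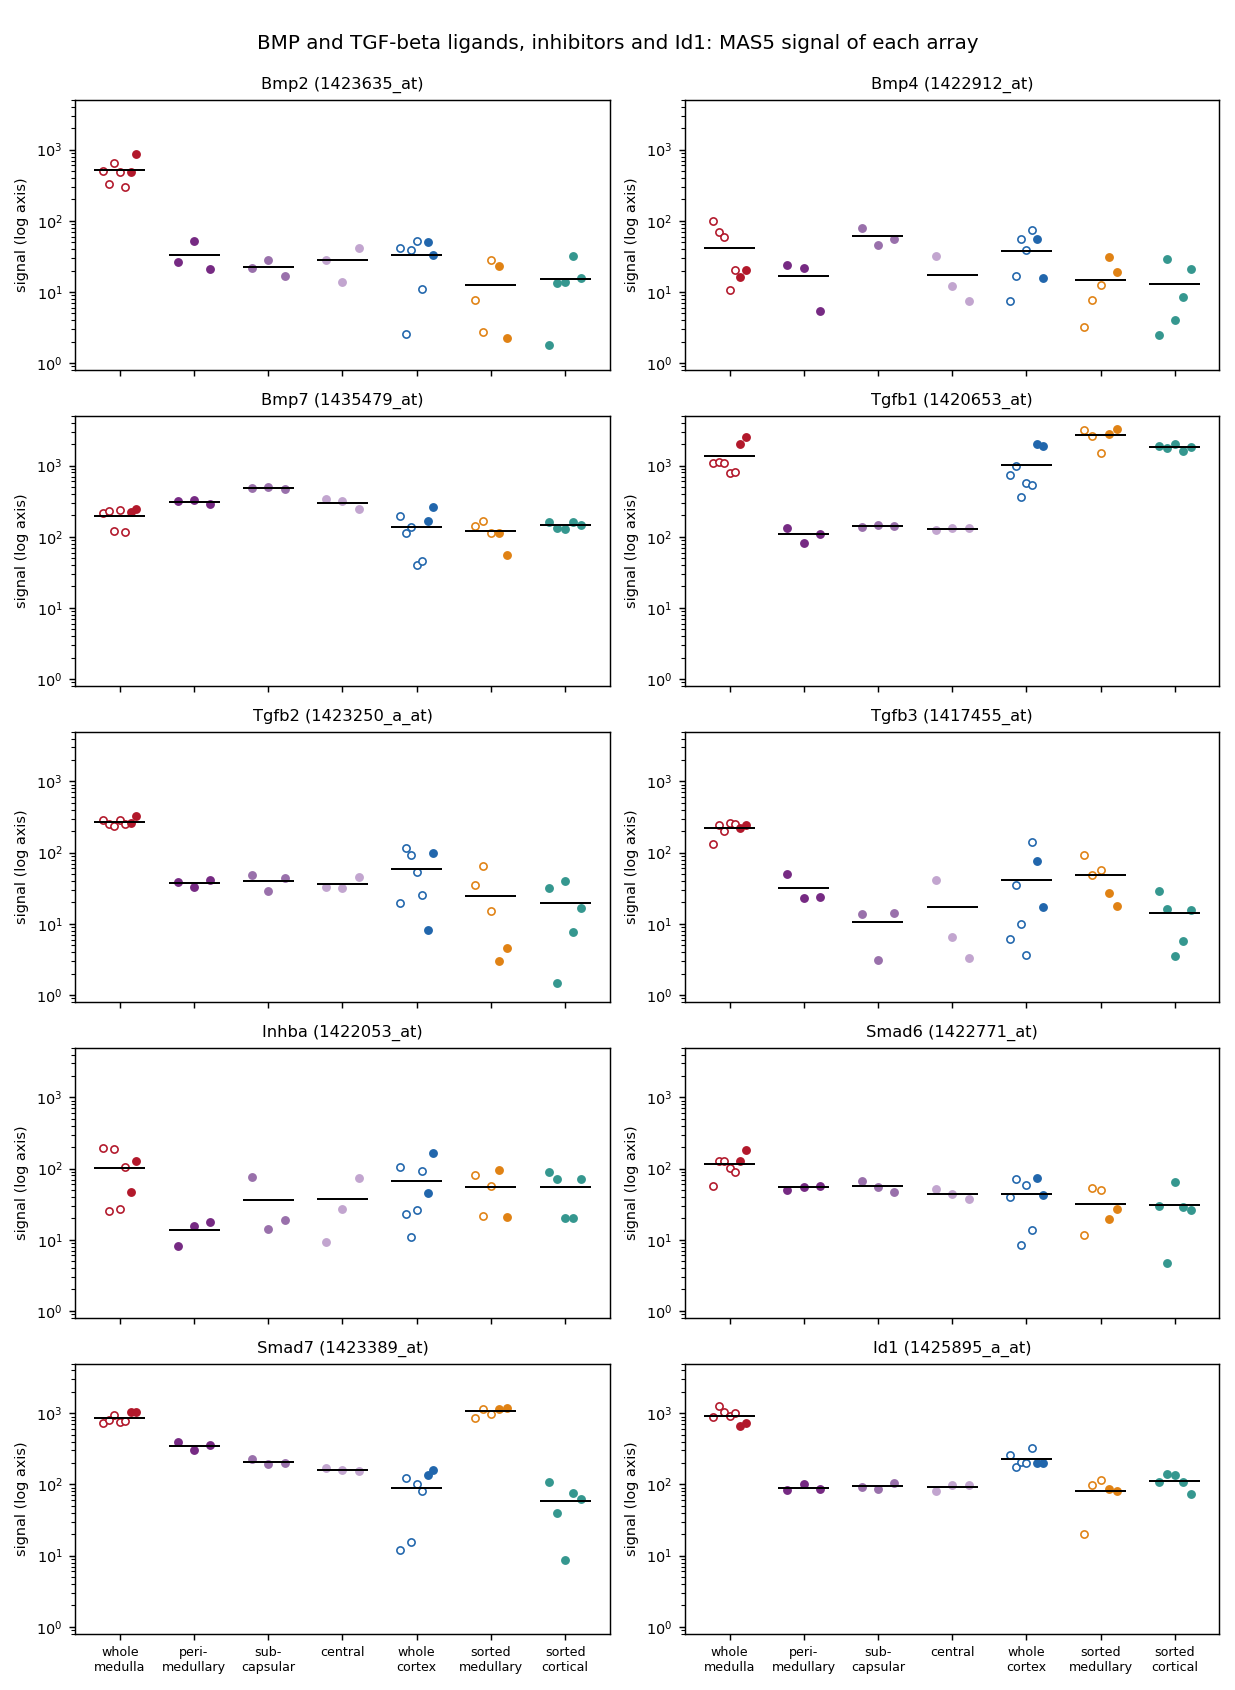
MAS5 signal (log axis) of the lead probe set of each of the 10 members on every array, by group. Each point is 1 array, open points are the 13 wide-tail arrays and the black bar is the group mean. Bmp2 is at 299 to 861 in whole medulla and at or below 52.2 in every other group, while Smad7 is high in whole medulla and in sorted medullary thymocytes.

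Among the BMP ligands, Bmp2 was the one with a signal almost confined to whole medulla. Its single probe set had a lowest, median and highest signal of 299, 488 and 861 on the 7 whole medulla arrays, against 2.6, 39.3 and 52.2 on the 7 whole cortex arrays. It read 26.8, 51.7 and 21.3 in perimedullary cortex, 21.6, 28.4 and 17.0 in subcapsular cortex, and 28.5, 13.8 and 41.0 in central cortex. Sorted medullary thymocytes had 7.75, 2.77, 27.8, 22.8 and 2.26, and sorted cortical thymocytes 1.81, 13.4, 13.9, 32.3 and 15.7. Whole medulla did not overlap with any other group, and the other 6 groups overlapped with their neighbours in the order of the means. Bmp2 was above the median of its array on the 7 whole medulla arrays and on none of the other 26. Whole medulla exceeded whole cortex (log2 fold change 3.21, SE 0.25, adjusted p = 2.38e-13), at 3.16 within the wide-tail arrays and 3.33 within the others. Against sorted medullary thymocytes it was higher by 3.78 (SE 0.27, adjusted p = 3.79e-14).

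Bmp4, a ligand known from thymic mesenchyme, had no signal above the median of its array on any of the 33 arrays. Its highest signals were 97.9 in whole medulla and 75.2 in whole cortex. The 3 subcapsular arrays read 79.6, 46.4 and 55.2, apart from perimedullary cortex at 23.7, 21.7 and 5.47 and from central cortex at 32.0, 12.3 and 7.46. Without the filter, the log2 fold change of subcapsular against central cortex was 1.02 (SE 0.41, adjusted p = 0.244) and that of whole medulla against whole cortex 0.04 (SE 0.27, adjusted p = 0.929).

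Bmp7, a ligand that shares receptors with BMP4, was above its array median on 28 arrays and had its highest lead signals in the dissected cortical subregions. The lead probe set, 1435479_at, read 481, 506 and 470 in subcapsular cortex, 314, 332 and 286 in perimedullary cortex and 335, 317 and 248 in central cortex, against a lowest, median and highest signal of 40.1, 135 and 259 in whole cortex. On this probe set the subcapsular arrays stood above all other arrays of the series. On a second probe set, 1418910_at, they read 195 to 239, above central cortex at 131 to 156 but below the highest whole medulla array at 256. On a further one, 1432410_a_at, which did not pass the filter, they read 2.07 to 7.19, below central cortex at 22.8 to 31.1. The difference of subcapsular from central cortex was not called on the lead (log2 fold change 0.66, SE 0.37, adjusted p = 0.402), nor was that of perimedullary from subcapsular cortex (-0.61, SE 0.37, adjusted p = 0.336). The mean of the 3 subregions was higher than whole cortex by 1.41 (SE 0.23, adjusted p = 2.13e-06), but by 0.71 (adjusted p = 0.00189) within the other arrays, which is below the fold used for a call. The second probe set, 1418910_at, gave a difference of -0.02 (SE 0.17, adjusted p = 0.931) for the same comparison. On the lead all 3 subregions had a higher mean than whole cortex, though all are cortex by their titles. That gap is therefore not read as a difference between cortical regions, and its cause was not tested.

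The sorted thymocytes also split the Bmp7 probe sets. The lead probe set read 143, 167, 113, 114 and 54.9 in medullary and 161, 131, 128, 160 and 147 in cortical thymocytes, and these ranges overlapped (log2 fold change -0.30, SE 0.29, adjusted p = 0.453). On 1418910_at the medullary thymocytes had 145, 60.6, 66.1, 90.7 and 95.3 and the cortical thymocytes 211, 232, 250, 179 and 201, without overlap, and medullary thymocytes were called lower (-1.07, SE 0.21, adjusted p = 7.76e-05). In tissue neither probe set was called, with whole medulla minus whole cortex at 0.59 (SE 0.24, adjusted p = 0.0387) on the lead and 0.26 (SE 0.18, adjusted p = 0.221) on the second. The probe set that did not pass the filter, 1432410_a_at, read 6.82, 3.36, 36.3, 7.51 and 10.5 in medullary and 42.8, 83.1, 79.6, 89.9 and 98.8 in cortical thymocytes, without overlap. Without the filter it was called lower in the medullary cells (log2 fold change -1.45, SE 0.34, adjusted p = 0.00118), where 5.82% of genes were called higher and 4.67% lower. Against sorted medullary thymocytes, whole medulla was called higher on 1418910_at (1.03, SE 0.19, adjusted p = 3.01e-05), with overlapping ranges. On the lead this difference was 0.64 (SE 0.26, adjusted p = 0.0478), below the fold used for a call, and it was called within the other arrays (1.27, adjusted p = 0.00011).

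**Figure D2:**
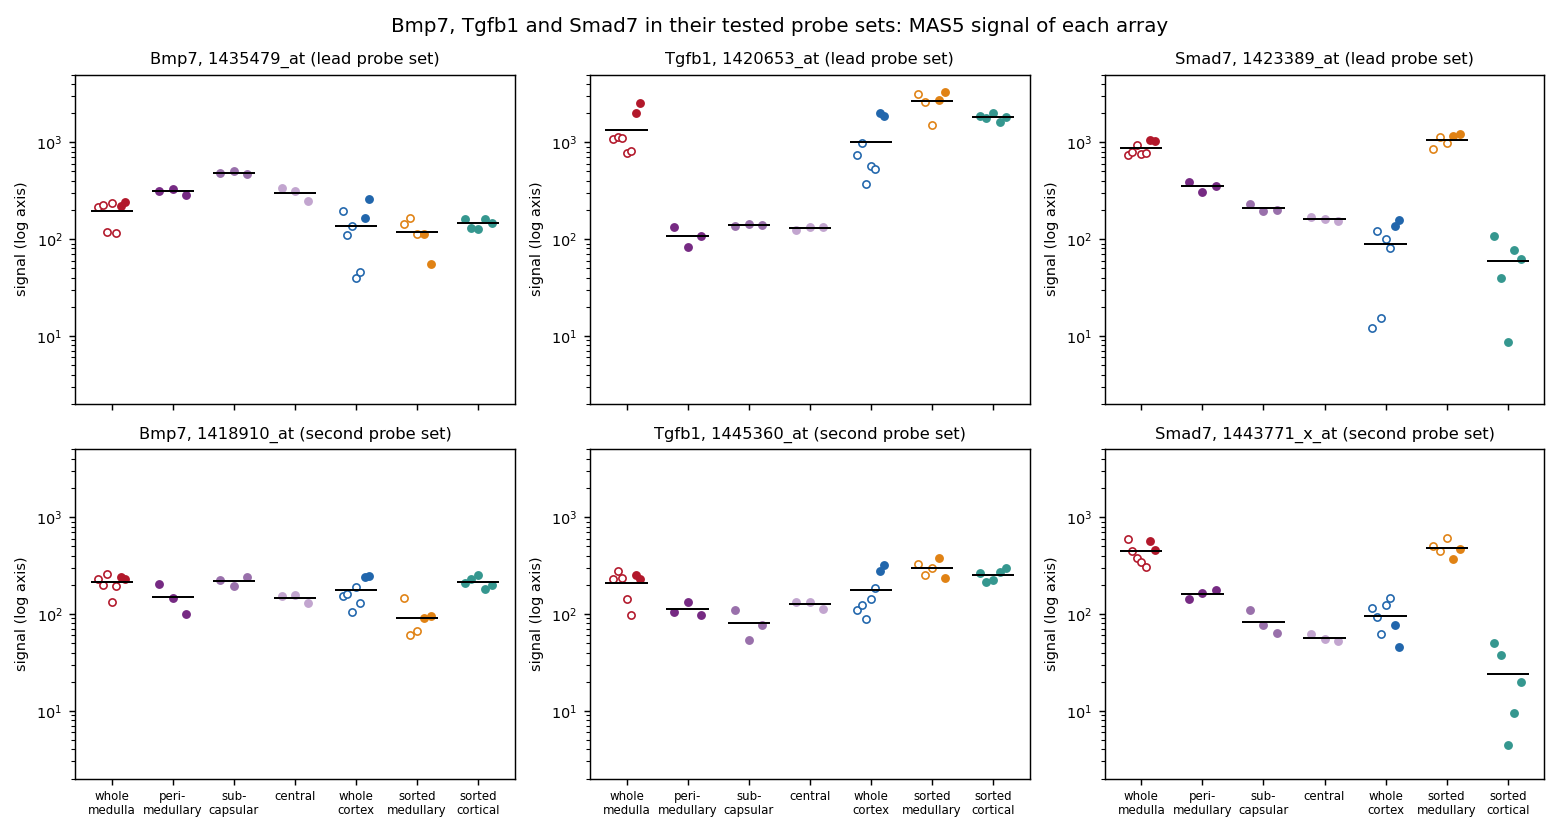
MAS5 signal (log axis) of the lead probe set (upper row) and the second tested probe set (lower row) of Bmp7, Tgfb1 and Smad7 on every array, by group. Points are arrays, open points the wide-tail arrays and bars group means. For Tgfb1 the lead probe set is at 82.8 to 144 in the 9 subregion arrays and at 367 to 1981 in whole cortex. On the second probe set these ranges are 54.5 to 134 and 89.7 to 317, and they overlap.

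The TGF-beta ligands fell into 2 patterns. Tgfb1, the main TGF-beta of lymphoid cells, was above the array median on 32 of 33 arrays, whereas Tgfb2 and Tgfb3, better known from epithelium and mesenchyme, were above it on 9 and 7 arrays, of which 7 and 6 were whole medulla. The 250 bases before the annotated start of Tgfb1 and Tgfb2 are shown as examples of a TGF-beta ligand measured on nearly all arrays and of one measured mainly in whole medulla. They are from the RefSeq promoter table for build GRCm38.p6, from which 5 of the 10 members were used (Bmp4, Tgfb1, Tgfb2, Inhba and Smad6), and run 5′ to 3′ on the strand of the gene. That of Tgfb1 is chr7:25686752-25687001 on the + strand and that of Tgfb2 is chr1:186705990-186706239 on the - strand.
Tgfb1: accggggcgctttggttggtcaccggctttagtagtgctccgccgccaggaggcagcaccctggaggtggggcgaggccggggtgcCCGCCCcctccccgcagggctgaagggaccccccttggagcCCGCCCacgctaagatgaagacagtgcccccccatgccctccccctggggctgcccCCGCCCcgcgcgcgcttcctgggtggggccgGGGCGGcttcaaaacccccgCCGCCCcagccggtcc
Tgfb2: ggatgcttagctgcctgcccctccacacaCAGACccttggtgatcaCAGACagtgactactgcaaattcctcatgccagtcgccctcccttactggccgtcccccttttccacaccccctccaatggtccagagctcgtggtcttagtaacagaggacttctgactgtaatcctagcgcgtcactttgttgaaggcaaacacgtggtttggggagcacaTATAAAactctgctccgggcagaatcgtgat
Capitals mark matches, on either strand, to any of 5 motifs searched: CAGAC, which holds a SMAD-binding letter group, GGCGCC, known for BMP-regulated SMADs, GGGCGG, the GC box, TGANTCA, the AP-1 motif, and TATAAA, the TATA box. Tgfb1 has 5 matches, each to GGGCGG or its reverse complement, and Tgfb2 has 2 to CAGAC and 1 to TATAAA, which lies 31 to 26 bases before the start. No 2 matches overlap. Among 32851 promoters of the same length, 32.7% hold GGGCGG, 42.2% CAGAC, 12.4% TATAAA, 9.59% GGCGCC and 6.75% TGANTCA. Of the other 3 members used, Smad6 holds 4 matches to GGGCGG, Bmp4 holds 1, and Inhba holds 1 to TATAAA.

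By the group means of its lead probe set, Tgfb1 was highest in the sorted thymocytes and lowest in the cortical subregions. The lead probe set, 1420653_at, read 3113, 2574, 1498, 2737 and 3302 in medullary and 1866, 1790, 2007, 1601 and 1832 in cortical thymocytes, which overlapped (log2 fold change 0.49, SE 0.32, adjusted p = 0.25). Whole medulla had a lowest, median and highest signal of 773, 1096 and 2544 and whole cortex of 367, 737 and 1981, which overlapped as well (0.53, SE 0.27, adjusted p = 0.0967). Within both tissues the wide-tail arrays were the low ones. In whole medulla these 5 arrays read 773 to 1127, against 1987 and 2544 on the others, and in whole cortex 367 to 978, against 1981 and 1887.

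Tissue was therefore set against sorted cells with and without those arrays. Whole medulla was called lower in Tgfb1 than sorted medullary thymocytes (-1.03, SE 0.30, adjusted p = 0.0041), but the difference was -0.42 (adjusted p = 0.0373) within the other arrays. Whole cortex was called lower than sorted cortical thymocytes (-1.08, SE 0.30, adjusted p = 0.00388), and within the other arrays it was 0.09 (adjusted p = 0.636) in the opposite direction. Both calls thus rested on the wide-tail arrays, and the cause was not tested. The first was also lost, at -0.93 to -0.96, when sorted medullary thymocytes 1 or 5 or whole medulla 4 or 5 was left out, and the second, at -0.88 to -0.99, when whole cortex 3, 4 or 5 was.

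Tgfb1 in the cortical subregions stood apart from whole cortex on the lead probe set. It read 132, 82.8 and 108 in perimedullary, 135, 144 and 141 in subcapsular and 124, 132 and 133 in central cortex, against 367 to 1981 in whole cortex, with no overlap. The mean of the 3 subregions was lower than whole cortex (log2 fold change -2.54, SE 0.25, adjusted p = 1.34e-10), and at -3.70 (SE 0.12) within the other arrays, which hold all 9 subregion arrays and 2 of whole cortex. These 2 ran further up in their highest values than the subregion arrays, so this fit does not set like arrays against like. In the comparison over all arrays, which was added after the values were seen, 7.25% of genes were called higher and 7.07% lower, against 2 and 2 of the 8 members. The second probe set of Tgfb1, 1445360_at, was at 54.5 to 134 in the subregions and 89.7 to 317 in whole cortex, and its difference of -0.55 (SE 0.20, adjusted p = 0.0172) was not called. On it, the 2 whole cortex arrays that are not wide-tail read 277 and 317, above all 9 subregion arrays. All 3 subregions lay below whole cortex on the lead, though all are cortex by their titles. This gap is therefore not read as a difference between cortical regions. The 2 probe sets thus differ in size for tissue of 1 compartment, and the cause was not tested.

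Tgfb2 and Tgfb3 were higher in whole medulla than in whole cortex. The lead probe set of Tgfb2, 1423250_a_at, had a lowest, median and highest signal of 233, 260 and 324 in whole medulla, against 8.13, 53.1 and 116 in whole cortex, without overlap (log2 fold change 1.97, SE 0.28, adjusted p = 2.27e-07). It read 28.6 to 48.7 over the 9 subregion arrays, 3.03 to 65.4 in sorted medullary and 1.48 to 39.6 in sorted cortical thymocytes. All groups other than whole medulla thus overlapped. A second probe set, 1450922_a_at, gave 2.15 (SE 0.31) and a further one, 1450923_at, 1.27 (SE 0.22), both called, and the fourth, 1438303_at, did not pass the filter.

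Tgfb3 had a lowest, median and highest signal of 131, 241 and 261 in whole medulla, against 3.67, 17.0 and 139 in whole cortex, where the lowest medulla array and the highest cortex array overlapped. The difference was called (log2 fold change 2.14, SE 0.30, adjusted p = 2.3e-07). Sorted medullary thymocytes read 93.6, 49.0, 56.2, 27.4 and 17.8 and sorted cortical thymocytes 29.2, 16.2, 3.53, 5.71 and 15.7. This difference was not called (0.85, SE 0.36, adjusted p = 0.0648), and it passed when sorted medullary thymocytes 5 was left out (1.02, adjusted p = 0.0329). The 3 wide-tail arrays of sorted medullary thymocytes were the high ones, at 49.0 to 93.6, against 17.8 and 27.4 on the others, and within the other arrays the difference was 0.31 (adjusted p = 0.564).

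Inhba, the subunit that forms activin A, was scattered at low signal in all groups. It was above the array median on 4 of 33 arrays and read 25.5, 105 and 197 as lowest, median and highest in whole medulla, against 10.8, 45.2 and 163 in whole cortex. No planned comparison called it, and its whole medulla difference was 0.46 (SE 0.38, adjusted p = 0.315).

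Smad7, the inhibitor of both arms, was the only member whose lead probe set was called between the sorted populations, and it was high in medulla both as tissue and as cells. Its lead probe set, 1423389_at, had a lowest, median and highest signal of 731, 797 and 1044 in whole medulla, against 12, 100 and 158 in whole cortex. Sorted medullary thymocytes read 860, 1141, 978, 1149 and 1203, and sorted cortical thymocytes 108, 39.4, 8.59, 77.0 and 61.6. Neither pair overlapped. The log2 fold change was 3.16 (SE 0.27, adjusted p = 3.95e-12) in tissue and 3.81 (SE 0.32, adjusted p = 4.33e-12) in sorted cells. Whole medulla and sorted medullary thymocytes overlapped (-0.29, SE 0.30, adjusted p = 0.457). The sort gate selects on CD3 and so by maturity, and all 4 mature thymocyte markers tested were called higher in the medullary cells; the part of the gate in the Smad7 difference cannot be told apart from the compartment.

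Within the cortex, Smad7 followed the order perimedullary, subcapsular, central. The lead probe set read 392, 306 and 353 in perimedullary, 230, 195 and 201 in subcapsular and 170, 160 and 153 in central cortex, and these 3 groups did not overlap. The step from perimedullary to central cortex was not called on the lead (log2 fold change 1.0, SE 0.42, adjusted p = 0.422) and was called on the second probe set, 1443771_x_at (1.17, SE 0.31, adjusted p = 0.0382), which read 143, 165 and 175 against 62.5, 55.8 and 52.6. Between perimedullary and central cortex 1.23% of genes were called higher and 0.0372% lower, and 0 of the 8 lead probe sets of members were called. When only these subregions were fitted, with a spread of their own, the lead difference passed (adjusted p = 0.00594). The summed signal of the mature thymocyte markers was also highest in perimedullary cortex, at 4781 to 5465 in perimedullary, 1479 to 1931 in subcapsular and 1545 to 2104 in central cortex, where the last 2 overlapped. Dendritic cell markers summed to 932 to 994, 192 to 327 and 350 to 464 in the same order of subregions, B cell markers to 696 to 971, 68 to 123 and 91 to 143, and macrophage markers to 12252 to 13925, 5049 to 6132 and 5598 to 7211. Of 6 macrophage markers, 2 were called higher and 1 lower in perimedullary against central cortex, and 3 and 1 against subcapsular cortex, where 2.9% and 1.63% of genes were. Medullary epithelial markers summed to 1430 to 1492, 752 to 962 and 984 to 1022. Fibroblast markers were instead highest in subcapsular cortex, at 3922 to 4527, 7828 to 10213 and 2365 to 3035. The part of these markers in the Smad7 difference was not tested.

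The Smad7 probe sets disagreed in further comparisons. The subregions were higher than whole cortex on the lead (1.36, SE 0.26, adjusted p = 2.64e-05), at 0.55 (adjusted p = 0.106) within the other arrays. On the second probe set the difference was 0.04 (SE 0.19, adjusted p = 0.874). As for Bmp7 and Tgfb1, the gap on the lead is not read as a difference between cortical regions, and its cause was not tested. The difference between compartments was smaller in tissue than in sorted cells on the second probe set (-1.41, SE 0.31, adjusted p = 0.000741) and did not pass on the lead (-0.65, SE 0.42, adjusted p = 0.297). Whole cortex was called higher than sorted cortical thymocytes on the second probe set (1.28, SE 0.22, adjusted p = 1.82e-05), with overlapping ranges. On the lead it was not (0.36, SE 0.30, adjusted p = 0.345), except within the other arrays (1.16, adjusted p = 0.00661).

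Smad6, the BMP-side inhibitor, was above the array median on 1 of 33 arrays, of whole medulla, on its single probe set. Its lowest, median and highest signals were 57.3, 126 and 183 in whole medulla, against 8.49, 41.8 and 74.0 in whole cortex. Without the filter, 15.3% of 18193 genes were called higher in whole medulla and 4.01% lower, and Smad6 was among those called higher (log2 fold change 1.07, SE 0.25, adjusted p = 0.000643), though the 2 ranges overlapped. It was also called higher without the filter in whole medulla than in sorted medullary thymocytes, which read 11.6 to 54.0 and did not overlap with it (1.29, SE 0.28, adjusted p = 0.000248), where 17% of genes were called higher and 0.923% lower.

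Id1, the BMP target, had a lowest, median and highest signal of 658, 917 and 1257 in whole medulla, against 176, 203 and 320 in whole cortex, with no overlap (log2 fold change 1.93, SE 0.19, adjusted p = 5.2e-11). It was 80.9 to 106 in the 9 subregion arrays, and their mean was lower than whole cortex by -1.06 (SE 0.17, adjusted p = 2.79e-06), at -0.95 within the other arrays and -0.98 without whole cortex 5, both below the fold used for a call. As for Bmp7 and Tgfb1, this gap is not read as a difference between cortical regions, and its cause was not tested. Sorted medullary thymocytes read 20.2, 97.7, 116, 86.6 and 80.6 and sorted cortical thymocytes 107, 142, 135, 109 and 74.0. The sorted groups overlapped, with a difference of -0.47 (SE 0.22, adjusted p = 0.0972), so that the medullary rise in tissue had no counterpart that passed the test in the sorted cells. Whole cortex lay above every sorted cortical array, by 0.84 (SE 0.20, adjusted p = 0.00118), which is below the fold used for a call.

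Whether tissue and sorted cells differ in their compartment difference was tested directly, as whole medulla minus whole cortex, less sorted medullary minus sorted cortical thymocytes. This term was called positive for 4 members and negative for 0, where 12.5% of genes were called positive and 2.14% negative. Without the filter it was called positive for 3 of the 10 members and negative for 0. There, 2777 of 34945 probe sets were called positive and 527 negative. Bmp2 had the largest value (3.32, SE 0.38, adjusted p = 2.33e-08), followed by Id1 (2.39, SE 0.29, adjusted p = 4.75e-08), Tgfb2 (1.88, SE 0.43, adjusted p = 0.00117) and Tgfb3 (1.30, SE 0.47, adjusted p = 0.0418). The Tgfb3 call was lost under 4 of the 7 other settings that tested it and under 15 of the 24 fits that left out 1 array, with an adjusted p of up to 0.169. Within the other arrays the 4 values were 3.45, 1.99, 2.80 and 1.64, all called.

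**Figure D3:**
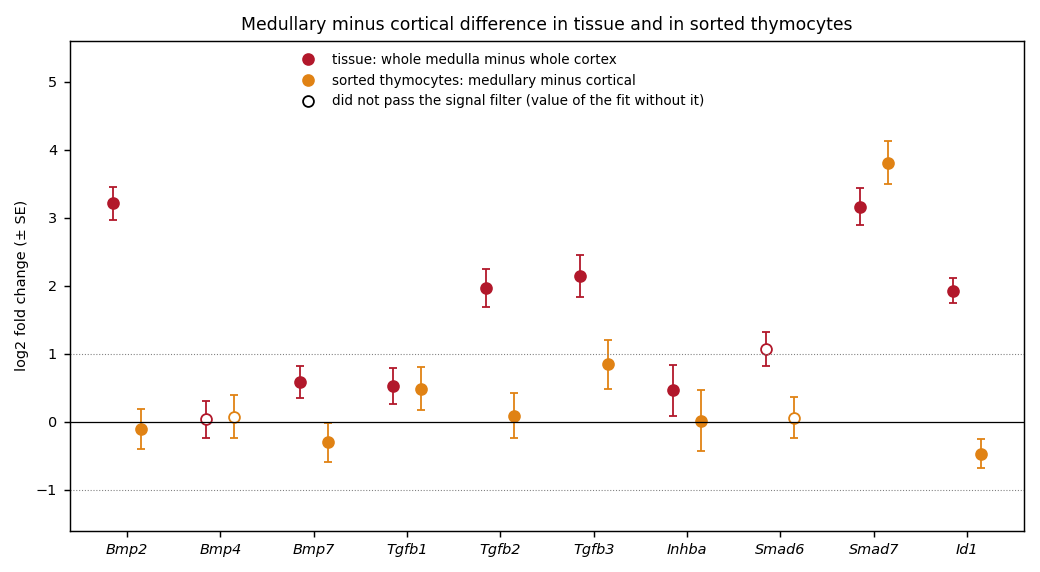
Log2 fold change ± SE of medullary minus cortical signal for each member, in tissue (red) and in sorted thymocytes (orange). Open points are from the fit without the filter, and dotted lines mark the fold used for a call. Bmp2, Tgfb2 and Id1 differ in tissue (3.21, 1.97 and 1.93) with sorted values of -0.11, 0.09 and -0.47, and Smad7 differs in both.

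Set against the sorted cells of the same compartment and counted on lead probe sets, whole medulla was higher in 4 members (Bmp2, Tgfb2, Tgfb3 and Id1) and lower in 1 (Tgfb1), where 19.4% of genes were called higher and 1.23% lower. Without the filter, 5 of the 10 members were called higher and 1 lower, where 17% of genes were called higher and 0.923% lower. Id1 had the second largest of these differences after Bmp2 (3.24, SE 0.20, adjusted p = 8.76e-16), and Tgfb2 had 2.68 (SE 0.31) and Tgfb3 1.79 (SE 0.33). Whole cortex against sorted cortical thymocytes gave 0 lead probe sets of members higher and 1 lower, the Tgfb1 call above, against 9.64% and 1.52% of genes. The calls on second probe sets and within the other arrays that these counts leave out are those given above for Bmp7 and Smad7. RNA of tissue came from another isolation kit than RNA of sorted cells, and in both comparisons the kit cannot be told apart from the source. The 2 comparisons between other cortical subregions called none of the 8 members in either direction, with 2.9% of genes higher and 1.63% lower in perimedullary against subcapsular cortex and 0.803% and 0.431% in subcapsular against central cortex.

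Markers of several other cell types moved with the medullary members. In whole medulla against whole cortex, 4 of 4 smooth muscle and pericyte markers, 5 of 6 medullary epithelial, 5 of 5 dendritic cell, 4 of 7 fibroblast, 2 of 5 endothelial, 2 of 2 B cell and 2 of 6 macrophage markers were called higher, where 18.6% of all genes were. By contrast, 1 macrophage marker and 5 of 6 cortical epithelial markers were called lower, where 5.39% of all genes were. Summed signals in whole medulla against whole cortex were 15687 to 19001 against 1224 to 1825 for smooth muscle, 6452 to 7802 against 411 to 713 for dendritic cells, 6350 to 10829 against 3441 to 6789 for fibroblasts and 1141 to 1762 against 594 to 1017 for endothelium. They were 1343 to 2894 against 69 to 273 for B cells, 21099 to 27795 against 5755 to 7882 for macrophages and 12380 to 17530 against 50805 to 71377 for cortical epithelium. In sorted cells the medullary epithelial markers summed to 237 to 317 in medullary and 368 to 593 in cortical thymocytes. Fibroblast markers summed to 187 to 247 and 270 to 374 in the same order, and smooth muscle markers to 254 to 472 and 223 to 373. Endothelial markers summed to 864 to 1305 in medullary and to at least 797 in cortical thymocytes, and both ranges overlapped with whole cortex. Cortical epithelial markers summed to 1085 to 2251 in medullary and 6221 to 6982 in cortical thymocytes. Pecam1, of the endothelial list, read 702 to 1210 and 715 to 889. Ctsl, of the cortical epithelial list, read 548 to 1050 and 5810 to 6560. No marker was listed at 0 on any array. Which cell type carried each member was not tested.

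The remaining genes of the pathway were read from 5 lists with 112 genes, of which 99 had a probe set and 73 were tested. In whole medulla 37 of the 73 were called higher and 0 lower, against 18.6% and 5.39% of all genes, with a median log2 fold change of 1.05, against 0.11 over all genes. Genes bright in whole medulla only could pass the filter through that group. Without the filter 40 of the 99 were called higher and 0 lower, against 15.3% and 4.01% of genes. By role, 13 of 19 extracellular antagonists and latency factors rose, 9 of 14 target genes, 9 of 16 receptors and coreceptors, 5 of 18 SMADs and their regulators and 1 of 6 other ligands. In sorted medullary thymocytes 15 of 73 were called higher and 2 lower, against 7.68% and 6.3% of all genes: 6 receptors rose and 1 fell, 4 SMAD regulators rose, 3 target genes rose, and 2 antagonists rose and 1 fell.

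**Figure D4:**
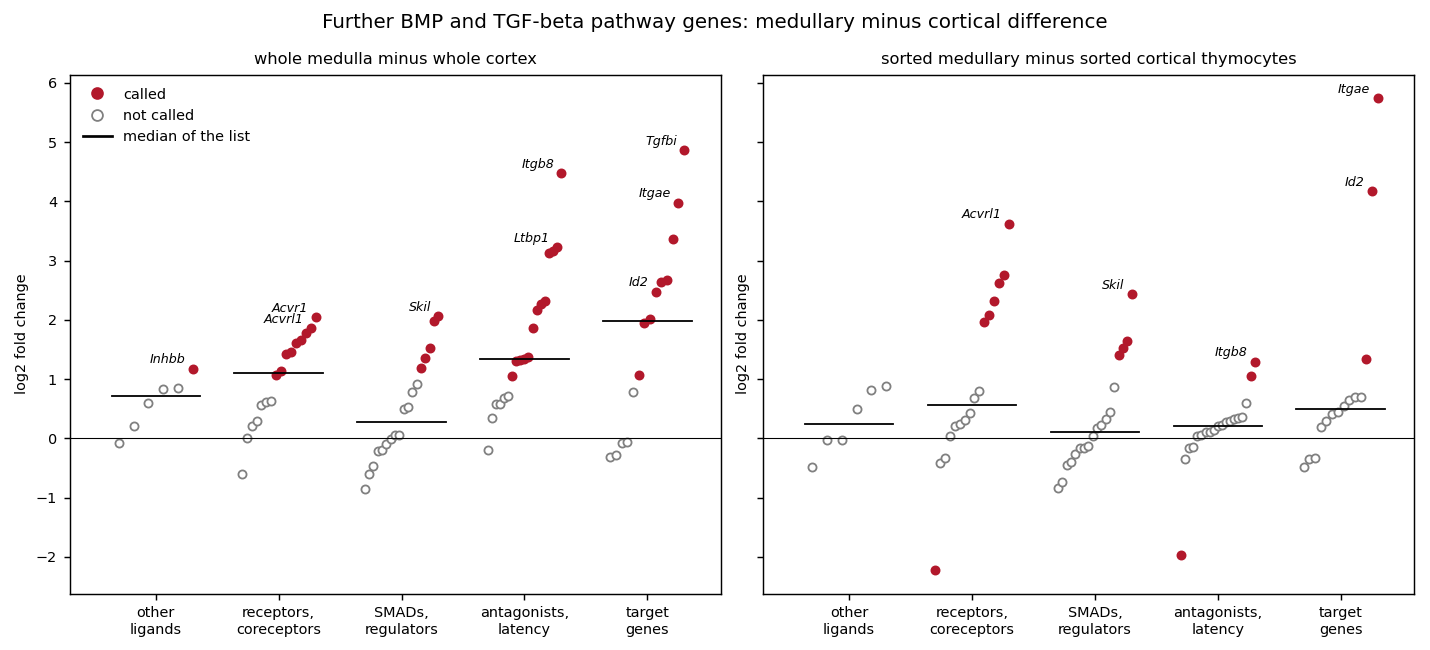
Log2 fold change of the lead probe set of each tested pathway gene, in 5 lists, for whole medulla minus whole cortex (left) and sorted medullary minus sorted cortical thymocytes (right). Filled points were called and bars are list medians. Of 73 genes, 37 were called higher and 0 lower in tissue, and 15 higher and 2 lower in sorted cells.

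Among the medullary antagonists and latency factors, the 3 largest changes were those of Itgb8, Ltbp1 and Sostdc1. Itgb8, the β subunit of the latent TGF-beta integrin αvβ8, had 1115 ± 632 in whole medulla and 22.9 ± 21.2 in whole cortex (log2 fold change 4.48, SE 0.29), and Ltbp1, which anchors latent TGF-beta in the matrix, 623 ± 140 and 58.1 ± 60.6 (3.22, SE 0.29). Sostdc1, a secreted BMP antagonist, had 328 ± 101 and 14.3 ± 17.3 (3.17, SE 0.27). For these 3 genes the compartment difference was larger in tissue than in sorted cells, by 3.18 (SE 0.45) for Itgb8, 3.11 (SE 0.45) for Ltbp1 and 3.03 (SE 0.42) for Sostdc1. In sorted thymocytes Itgb8 was 70.5 ± 27.2 in medullary and 12.3 ± 6.19 in cortical cells (1.30, SE 0.34), and Fstl3, a follistatin-like inhibitor of activin, fell (-1.97, SE 0.31).

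Among target genes, Tgfbi, a matrix protein named for its induction by TGF-beta, had 5541 ± 598 in whole medulla and 170 ± 47.3 in whole cortex (log2 fold change 4.86, SE 0.19), with 27.2 ± 20.2 in sorted medullary and 12.7 ± 11.1 in sorted cortical thymocytes. Cdkn2b, a cyclin-dependent kinase inhibitor induced by TGF-beta, had 775 ± 95.1 and 60.1 ± 45.1 in the same tissues (3.36, SE 0.26). Itgae, the αE integrin subunit that TGF-beta induces on T cells, had a larger compartment difference in sorted cells than in tissue (tissue minus sorted cells -1.77, SE 0.20). It had 4964 ± 1380 in sorted medullary and 65.8 ± 16.9 in sorted cortical thymocytes (5.74, SE 0.15), and 3511 ± 637 in whole medulla and 198 ± 35.7 in whole cortex (3.97, SE 0.13). In perimedullary cortex Itgae was 2392 ± 329, against 178 ± 11.6 in subcapsular (3.56, SE 0.20) and 255 ± 33.9 in central cortex (3.10, SE 0.20). Id2, an Id1 relative, had 7875 ± 1720 in sorted medullary and 411 ± 96.3 in sorted cortical thymocytes (4.17, SE 0.14).

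Some receptors and SMAD regulators were called in both tissue and sorted cells, and others in 1 of them. Acvrl1, a type I receptor best known from endothelium, had 676 ± 112 in sorted medullary and 34.5 ± 24.1 in sorted cortical thymocytes (log2 fold change 3.62, SE 0.34) and 341 ± 56.1 in whole medulla and 92.2 ± 59.5 in whole cortex (1.86, SE 0.29). Acvr1, a type I receptor for BMPs, was 329 ± 63.4 in whole medulla and 61.6 ± 24.7 in whole cortex (2.04, SE 0.19), and 23.9 ± 12.9 in sorted medullary and 16.1 ± 5.2 in sorted cortical thymocytes. Acvr2b, a type II receptor of activin, was lower in sorted medullary thymocytes, at 14.9 ± 22.5, than in sorted cortical ones, at 152 ± 36.1 (-2.22, SE 0.28). Skil, a nuclear repressor of SMAD signalling, had 6794 ± 546 in whole medulla and 1666 ± 532 in whole cortex (2.06, SE 0.12), and 6163 ± 963 and 1106 ± 51.2 in sorted medullary and cortical thymocytes (2.44, SE 0.14). Pmepa1, another feedback inhibitor of TGF-beta, had 1422 ± 166 and 346 ± 72.4 in the tissues (1.98, SE 0.11) and 1185 ± 136 and 396 ± 55.2 in the sorted cells (1.52, SE 0.13). The adjusted p of each difference called in these paragraphs on pathway genes was at most 0.00284, that of Itgb8 in sorted cells.

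As a description of shared pattern over the 33 arrays, which fall into 7 groups and so are not independent points, Pearson r between log2 signals was highest among members for Bmp2 and Id1 (0.882), Bmp2 and Tgfb2 (0.827) and Tgfb2 and Id1 (0.813), and lowest for Bmp7 and Tgfb1 (-0.583). For Bmp7 and Tgfb1 it uses lead probe sets whose calls between the subregions and whole cortex were not shared by the second probe sets. Over all tested genes, those most like Bmp2 were Calml4 (0.957), Krtdap (0.956) and Serpinb6b (0.956). Those most like Id1 were Epcam (0.943), an epithelial adhesion molecule, Serpinb1a (0.942) and Ifitm2 (0.939). Smad7 was most like Tnfsf11 (0.962), the gene of RANK ligand, Gramd4 (0.945) and Cd200 (0.943). Tgfb1 was most like Tcf25, Tln1 (both 0.961) and Aspscr1 (0.96), Tgfb2 most like Chil1 (0.919), Tgfb3 most like Cdh17 (0.917) and Bmp7 most like Scarb1 (0.84). The best matches of Bmp4, Inhba and Smad6 reached 0.686, 0.682 and 0.83.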

How the data were processed

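RNA from dissected thymus and sorted thymocytes was hybridised to 33 Affymetrix arrays after oligo-dT priming. The deposited values are array signals (intensity) on a linear scale, made with Affymetrix Expression Console 1.0 and MAS5 per the submitters' processing notes. The authors' values show scaling within each array, since the mean without the lowest and highest 2% of probe sets was 492.3 to 498 on every array, and background and filter settings are not given in the sources used here. Probe sets with 1 symbol in the platform annotation (34945) were used, and 932 with several symbols and 9160 with none were left out.

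Values were taken as log2(signal + 26.2), where 26.2 is the median of the 25th percentiles of the 33 arrays. Probe sets above their array's median on at least 3 arrays (24883, for 13445 genes) were fitted with 7 group means in limma 3.58.1, under R 4.3.3, with 26 residual degrees of freedom and a spread trended on signal, with 2-sided tests and Benjamini-Hochberg adjustment over all of them. The fit was tested on simulated data. Called means an adjusted p below 0.05 and an absolute log2 fold change of at least 1. Precision depends on the number of arrays, since arrays have no read depth. Members, gene lists, comparisons and tests were chosen with earlier results of these data known. Named pathway genes are up to 3 called genes per list and comparison with the largest absolute change, of which the text describes some, and those most like a member are the 3 with the highest Pearson r. Alternatives were quantile normalization, a smaller offset (6.55), dropping the filter or tightening it to 7 arrays above the median with 1 beyond the 75th percentile, 1 probe set per gene, a fit of the compared groups only, a replicate block, fits within the wide-tail and other arrays, and each array left out in turn. The limit for wide-tail arrays came from those earlier results, and the comparison of the subregions with whole cortex was added after seeing the values.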

Additional observations from a re-analysis of the deposited data

Results flagged for a closer look

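Among 72 tests of a probe set in a group of 4 to 10 arrays, 6 found 1 array far from the others by Dixon's test, where chance gives about 1 in 20. On Bmp7 probe set 1432410_a_at, sorted medullary thymocytes 3 had a signal of 36.3, against 3.36 to 10.5 on the other 4 arrays, and sorted cortical thymocytes 1 had 42.8, against 79.6 to 98.8. On Tgfb2 probe set 1450922_a_at, whole cortex 7 had 27.6, against 1.41 to 5.22, and on 1450923_at whole cortex 5 had 14.0, against 44.9 to 80.9. Tgfb3 in whole medulla 1 was 131, against 202 to 261 on the other arrays of that group. Id1 in sorted medullary thymocytes 1 was 20.2, against 80.6 to 116.

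The compartment difference (medullary minus cortical) of tissue was set against that of sorted thymocytes by an interaction term in limma, and 7 of the 13 tested probe sets of members passed. Over all 24883 tested probe sets, 2496 were called positive and 478 negative. The term was 3.32 for Bmp2, 2.39 for Id1, 1.88 and 2.15 for Tgfb2 on 1423250_a_at and 1450922_a_at, 1.30 for Tgfb3 and 1.33 for Bmp7 on 1418910_at, each larger in tissue. It was -1.41 for Smad7 on 1443771_x_at, where the sorted cells had the larger difference. A further Tgfb2 probe set, 1450923_at, gave 0.82 (adjusted p = 0.082) and did not pass. The lead probe sets of Bmp7 and Smad7 gave 0.89 (adjusted p = 0.0853) and -0.65 (adjusted p = 0.297) and did not pass.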

How the results depend on the processing

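Of 20 called differences of members, 442 of 476 values under the alternatives kept direction and call, 33 kept the direction but lost the call and 1 reversed. Of 52 differences not called, 929 of 937 values stayed so, 58 of them with the other sign, and 8 passed. The reversal was Tgfb1 in whole cortex against sorted cortical thymocytes, at 0.0903 within the other arrays. The number of members called was 5 in whole medulla against whole cortex in all 14 fits that left out 1 array, and 3 under the stricter filter, which tested fewer members. The stricter filter gave 2 instead of 4 for the difference between tissue and sorted cells and 3 instead of 5 for whole medulla against sorted medullary thymocytes. In whole cortex against sorted cortical thymocytes the count of 1 became 2 with the smaller offset (Tgfb2 added) and 0 under quantile normalization. In perimedullary against central cortex the count of 0 became 1 (Smad7) when only the groups compared were fitted and within the other arrays. The subregions against whole cortex had 4, and 2 (Tgfb1 and Inhba) within the other arrays. Leaving out 1 array gave 1 to 2 members for sorted medullary against sorted cortical thymocytes, 3 to 4 for the difference between tissue and sorted cells, 4 to 5 for whole medulla against sorted medullary thymocytes, 0 to 1 for whole cortex against sorted cortical thymocytes, 3 to 4 for the subregions against whole cortex, and 0 in the 3 comparisons between subregions. The cause of these changes was not tested, other than the filter. With the replicate number as a block the counts of members called were 5, 1, 4, 5, 1, 0, 0, 0 and 4 over the 9 comparisons, as without it. The labels do not say whether the numbers pair the samples, and correlations of deviations cannot decide it. Deviations of same-numbered arrays correlated at -0.0123 to 0.268 for whole medulla and whole cortex, with the highest, 0.253 and 0.268, for numbers 6 and 7. Those are the arrays of both groups that are not wide-tail. For the other pairs of groups the correlations were -0.0903 to 0.0917. Over all genes, whole medulla against whole cortex had 2503 called higher and 725 lower (77.5% higher) and a median log2 fold change of 0.11, and under quantile normalization 2102 and 989 (68%) and -0.02. The 20 called differences of members kept their direction under it. In whole medulla against sorted medullary thymocytes the genes called lower were 166, and 334 under it. In whole medulla against whole cortex 3850 probe sets were called higher, and 2001 under the stricter filter, which tested fewer. In whole cortex against sorted cortical thymocytes those called lower were 1087, and 310 within the other arrays. Dim signal limits Bmp4, Inhba and Smad6, which lay above the array median on 0, 4 and 1 of 33 arrays. Fits within the wide-tail arrays were not run for comparisons with a group that holds no such array.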
